A study of Mus musculus with 8 samples.

Results

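The genes described here act in DNA replication and in mitosis: 50 mouse genes were listed, 25 of S phase and 25 of mitosis, and 49 of them had a probe set of their own among the 12393 genes on the array. A member was taken as a probe set annotated with that gene symbol and no other. Where a gene had several, the brightest by mean log2 signal was used. All 25 S phase genes and 24 mitosis genes were measured, and Cdca8, which is listed with the mitosis genes, was not analysed here. The cells were TTE3, a Sertoli cell line from mice transgenic for the large T antigen of simian virus 40 in a temperature-sensitive form, so every group carried the T antigen. Exposure to bisphenol A (BPA), a monomer of plastics with weak oestrogenic activity, was at 0.2 mM for 3, 6 or 12 h, with 0 h as the baseline. Each time had 2 arrays (Affymetrix Mouse Expression 430A, 8 in all), numbered 1 and 2 as in the sample titles. Nothing in the labels tells if the arrays within a time are of different cultures, and p-values therefore measure the spread between arrays, which may be technical. No untreated cells at 3, 6 or 12 h were in the groups, so BPA and time in culture cannot be told apart. TTE3 is a cell line and not primary tissue, and the temperature at which it was grown is not given in the sources used here.

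Before a cell divides it copies its DNA in S phase and separates the copies in mitosis. The MCM helicase is loaded on DNA before S phase by CDC6 and CDT1, with geminin (Gmnn) as the inhibitor of CDT1. PCNA, the sliding clamp, is loaded by replication factor C, and thymidine kinase and ribonucleotide reductase supply the nucleotides. Cyclin-dependent kinase 1 with its partners then drives entry into mitosis, the spindle checkpoint waits for every chromosome to be attached, and kinesins build the spindle. Transcription of S phase genes is controlled largely by E2F factors, which the retinoblastoma protein holds back, and that of mitosis genes largely by the MuvB complex with B-MYB and FOXM1 and by NF-Y. Large T antigen binds the retinoblastoma protein family and p53, both of which restrain the cell cycle. Sertoli cells are the somatic cells that nurse germ cells in the testis, and in the adult they have largely stopped dividing.

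The label of the cells was set against marker genes. Of 16 Sertoli markers 14 were on the array and 9 passed the filter on low signal described below. Gata4, Clu, Kitl and Krt18 were well above it, and Sox9 and Wt1 had median signals of 134.9 and 161.3, while Amh, Dhh, Fshr, Amhr2 and Aard were below it. Of 10 germ cell markers 3 passed, Kit (median signal 436.8), Zbtb16 (71.3) and Prm1 (57.95). Ddx4, Dazl, Stra8, Sycp3, Tnp1, Dmrtb1 and Piwil2 were below the filter. Star alone of 5 measured Leydig cell markers passed, as did 6 of 8 of peritubular cells or fibroblasts, 4 of 6 of macrophages and 1 of 5 of endothelial cells. Dcn, listed for peritubular cells or fibroblasts, had a median signal of 5623.8, above the 5494.85 of Clu. The summed signal of the Sertoli markers was 8126 to 8874 at 12 h, against 11933 to 12375 at 0 h. That of the peritubular and fibroblast markers was 4553 to 5353 at 12 h, against 9721 to 9760 at 0 h. The sums are of linear signals, so Clu weighs most in the first and Dcn in the second. The part of these shifts in the results below was not tested. The arrays were alike in quality: the correlation of log2 signals between the 2 arrays of a time was 0.974 to 0.984, and the Gapdh control ratio (3' over 5') was 0.713 to 0.82.

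The sequences before the starts of a few members are given first, because S phase genes and mitosis genes are known to carry different control elements there. Promoters from RefSeq (build GRCm38.p6) were matched by symbol to 23 of the 25 S phase genes and 22 of the 25 mitosis genes. Within 250 bases before the start, on both strands, 3 sets of letters were searched: the E2F words TTTCCCGC, TTTCGCGC, TTTGCCGC and TTTGGCGC, the cell cycle homology region words TTTGAA and TTCGAA, and CCAAT, the letters bound by NF-Y. No word of one set lies within a word of another, but matches can overlap in a promoter. An E2F word was found in 6 of 23 S phase genes (26.1%) and 1 of 22 mitosis genes (4.55%), against 2.16% of 27025 genes with a promoter in the table. A cell cycle homology word was found in 4 of 23 S phase genes (17.4%) and 8 of 22 mitosis genes (36.4%), against 19.6% of all. CCAAT was found in 12 of 23 S phase genes (52.2%) and 18 of 22 mitosis genes (81.8%), against 37.5% of all. A match is a run of letters and not a shown site of binding.

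The mitosis genes shown are the 3 with the largest changes at 12 h among members with values on every array below that held a cell cycle homology word. They are Cdk1 (chr10:69352913-69353112, minus strand), the kinase that starts mitosis, Kif2c (chr4:117178773-117178972, minus strand), a kinesin that takes microtubules apart, and Prc1 (chr7:80294276-80294475, plus strand, the second of 2 starts), which bundles the microtubules of the central spindle. Of the 8 S phase genes with the largest changes at 12 h, and of Pcna and E2f1, none held an E2F word. Cdc6 (chr11:98907951-98908150, plus strand) and Mcm6 (chr1:128359706-128359905, minus strand) are therefore shown for the S phase genes, a choice made after their values were seen. Each run holds the 200 bases before the start, 5′ to 3′ on the gene's strand, and capitals mark every matched word on either strand.
Cdk1: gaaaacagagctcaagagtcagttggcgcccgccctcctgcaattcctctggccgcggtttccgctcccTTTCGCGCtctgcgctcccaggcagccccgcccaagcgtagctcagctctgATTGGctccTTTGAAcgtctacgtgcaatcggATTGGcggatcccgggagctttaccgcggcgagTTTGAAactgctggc
Kif2c: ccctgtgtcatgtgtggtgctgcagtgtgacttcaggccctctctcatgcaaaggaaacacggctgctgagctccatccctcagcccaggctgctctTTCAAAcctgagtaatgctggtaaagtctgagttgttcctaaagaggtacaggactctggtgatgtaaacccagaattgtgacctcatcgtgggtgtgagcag
Prc1: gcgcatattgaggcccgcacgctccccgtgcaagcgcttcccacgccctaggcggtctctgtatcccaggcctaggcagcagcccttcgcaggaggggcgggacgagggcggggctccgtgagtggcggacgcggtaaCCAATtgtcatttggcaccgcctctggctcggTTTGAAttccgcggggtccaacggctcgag
Cdc6: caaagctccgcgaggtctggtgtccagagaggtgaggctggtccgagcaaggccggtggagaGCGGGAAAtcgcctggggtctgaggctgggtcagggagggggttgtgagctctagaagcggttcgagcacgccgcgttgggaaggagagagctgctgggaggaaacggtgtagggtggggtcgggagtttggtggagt
Mcm6: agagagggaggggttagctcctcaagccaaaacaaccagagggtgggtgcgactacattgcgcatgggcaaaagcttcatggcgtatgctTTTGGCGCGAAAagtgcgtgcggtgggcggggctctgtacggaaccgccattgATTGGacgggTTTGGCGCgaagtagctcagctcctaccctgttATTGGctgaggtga
The Cdk1 run holds an E2F word 131 bases before the start, TTTGAA at 71 and 15 bases, and CCAAT on the other strand at 80 and 48 bases. The Cdc6 run has an E2F word at 138 bases and no CCAAT. The Mcm6 run has E2F words at 110 and 47 bases, the first of them overlapping a match on the other strand.

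After 12 h in BPA 4 S phase genes were called higher and 6 lower of 25, and 1 mitosis gene higher and 4 lower of 24, against 20.9% of all genes higher and 17.5% lower. Tk1, Rrm2, Dut and Rrm1 of the 5 enzymes that supply nucleotides fell, led by Tk1 at -1.42 on the log2 scale, and the helicase genes Mcm10 and Mcm2 rose. Among the mitosis genes, Cks2, Cdk1, Kif20a and Mad2l1 fell and Bub1 rose, all by less than 2-fold on the probe sets used. Changes are differences of log2(signal + 7.9) from 0 h with their standard error, 7.9 being the 10th percentile of all values, so changes of dim genes are understated. A gene is called where limma's moderated test, adjusted by Benjamini-Hochberg over the 8675 genes above the filter (a signal of about 47.6), gave p under 0.05. All 49 members passed this filter. In bulk RNA, fewer cells of a kind and less RNA per cell cannot be told apart.

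At 3 h, 3 of 25 S phase genes were called (12.0%), 2 higher and 1 lower, and 0 of 24 mitosis genes, against 12.1% of all genes tested, 8.55% higher and 3.53% lower. At an unadjusted p under 0.05, 1 of the 24 mitosis genes passed at 3 h, against 2242 of all 8675 genes. At 6 h the counts were 8 of 25 S phase genes (3 higher, 5 lower) and 3 of 24 mitosis genes (1 higher, 2 lower), against 26.5% of all, 16.8% higher and 9.73% lower. At 12 h they were 10 of 25 S phase genes (40.0%; 4 higher, 6 lower) and 5 of 24 mitosis genes (20.8%; 1 higher, 4 lower), against 38.4% of all, of which 20.9% were higher and 17.5% lower. The share of S phase genes called was thus near that of all genes at each of these times. Over the 4 times together, limma's F test called 11 S phase genes (44.0%) and 6 of the 24 mitosis genes, against 35.8% of all. On the probe sets used, Tk1 and Mcm10 of the S phase genes changed at least 2-fold and were called at 12 h. This held for 0 of the mitosis genes, against 10.9% of all genes. Other probe sets differed, with -1.25 for Cks2 and -0.11 for Mcm10 at 12 h. Leaving out a 0 h array lowered the count of calls over all genes at 3 and 6 h. For 12 h that count is not given here, so the member counts that follow cannot be read as particular to the members. With an array left out the S phase count at 12 h was 6 without 0 h array 1 or 12 h array 2, and the mitosis count was 2 without either 0 h array and 1 without 12 h array 2. At 6 h the S phase count was 4 without 0 h array 2, and the mitosis count was 1 without 0 h array 1 and 0 without 0 h array 2. At 3 h the S phase count was 0 without 0 h array 1 or either 3 h array, 1 without 0 h array 2 and 5 without either 6 h array, and the mitosis count was 1 without either 6 h array.

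The median change of the S phase genes was -0.061, 0.017 and 0.11 at 3, 6 and 12 h, and that of the mitosis genes 0.058, -0.095 and -0.25, beside 0.061, 0.072 and 0.058 for all genes. At 12 h 17 of 25 S phase genes lay above 0 and 18 of 24 mitosis genes below 0. In 14 of 24 mitosis genes (58.3%) both 12 h arrays were below both 0 h arrays, against 30.9% of all genes. Of the S phase genes, 12 had both 12 h arrays above both 0 h arrays (48.0%, against 38.6% of all) and 8 had both below (32.0%, against 30.9%). The middle 50% of S phase genes spanned 0.49 log2 units at 12 h and that of mitosis genes 0.36, less than the 0.74 of all genes. Signs near 0 at 3 and 6 h depend on how arrays are scaled: with every array set to the same median signal, the median of all genes was -0.068 and -0.038 at 3 and 6 h, that of the S phase genes -0.19 and -0.096, and that of the mitosis genes -0.074 and -0.21. Called genes were then 464 higher and 643 lower over all genes at 3 h, in place of 742 and 306, and 1059 and 1188 at 6 h, in place of 1455 and 844. At 12 h the medians kept their signs under this scaling and under quantile normalization.

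**Figure D1:**
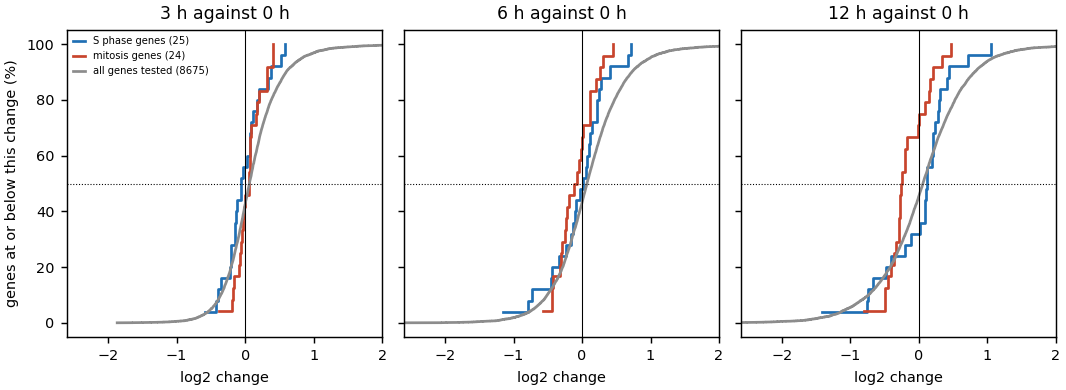
Cumulative share of genes (vertical axis, percent) at or below each log2 change (horizontal axis) at 3, 6 and 12 h against 0 h, for 25 S phase genes, 24 mitosis genes and 8675 genes tested. At 12 h the mitosis curve lies left of the S phase curve over most of its height, with medians of -0.25 and 0.11, and the dotted line marks 50%.

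Averaged over members on each array, the log2 level relative to 0 h was 0.045 and -0.040 for the S phase genes at 12 h, and -0.12 and -0.23 for the mitosis genes. The S phase mean minus the mitosis mean was -0.11 and -0.025 on the 3 h arrays, 0.074 and 0.010 at 6 h, and 0.16 and 0.19 at 12 h, while the 0 h arrays lay at -0.023 and 0.023. Both 12 h arrays were therefore above both 0 h arrays in this difference. The first 3 h array lay below both, and the second, at -0.025, was about level with the lower 0 h array, at -0.023. No test was made of this difference, since the members were chosen with results of these data known.

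**Figure D2:**
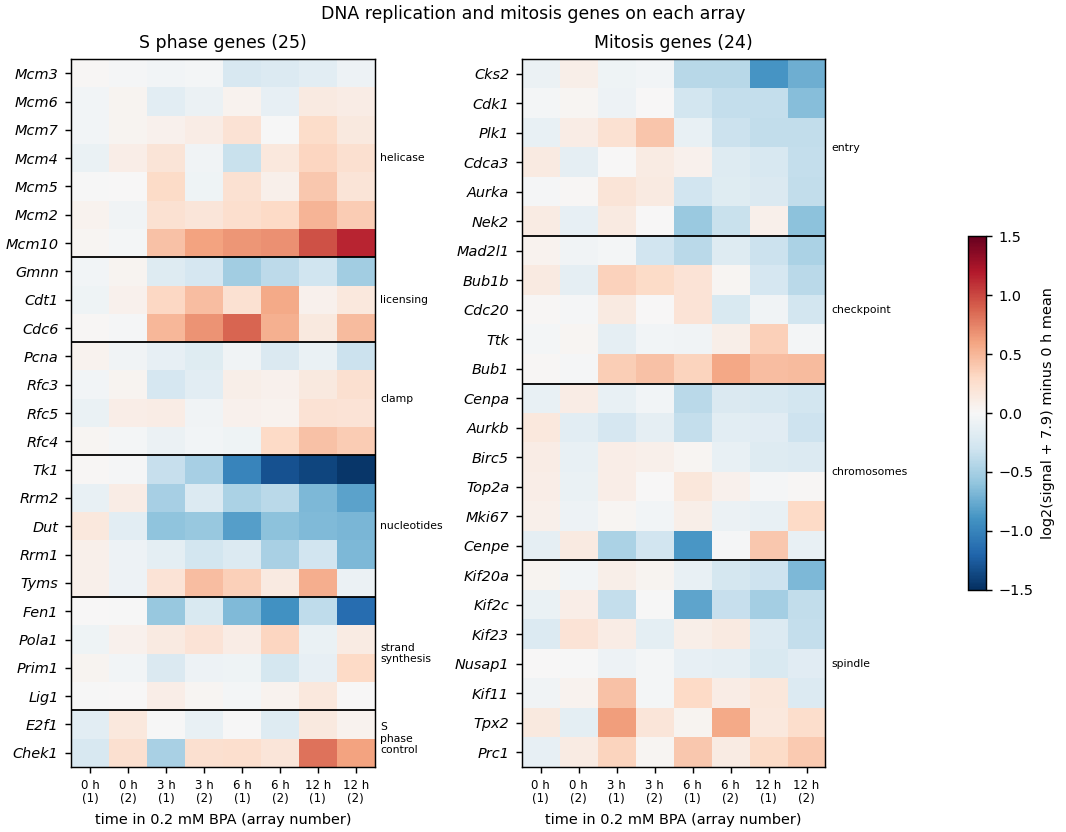
Each row is a gene and each column an array, with colour giving log2(signal + 7.9) minus the gene's 0 h mean and lines separating roles. Tk1 darkens to about -1.4 by 12 h and Mcm10 reaches about 1.05, while most mitosis rows stay within 0.5 of 0.

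Of the 7 helicase genes, Mcm10 and Mcm2 rose by 12 h and none fell (2 of 7, against 20.9% of all genes called higher). Mcm10 encodes a replication initiation factor that binds the MCM ring and helps start unwinding. Its signals were 279.6 and 267 at 0 h, 374 and 420.5 at 3 h, 439 and 444 at 6 h, and 539 and 611 at 12 h. Every array after 0 h was above both 0 h arrays, and the change was 0.52 ± 0.15 at 3 h (adjusted p = 0.0323), 0.68 ± 0.15 at 6 h (adjusted p = 0.00403) and 1.05 ± 0.15 at 12 h (adjusted p = 9.78e-05). Mcm2, a subunit of the ring itself, had signals of 2495 and 2299.7 at 0 h, 2815 and 2719 at 3 h, 2852 and 2956 at 6 h, and 3406 and 3130.2 at 12 h. Its groups did not overlap at any time against 0 h, and the change reached 0.45 ± 0.10 at 12 h (adjusted p = 0.0043). The other ring subunits were -0.12 (Mcm3), 0.28 (Mcm4), 0.30 (Mcm5), 0.12 (Mcm6) and 0.21 (Mcm7) at 12 h, with adjusted p from 0.0916 to 0.402. For 6 of the 7 both 12 h arrays were above both 0 h arrays, against 38.6% of all genes. In Mcm3 both were below, against 30.9% of all. The second probe sets of Mcm4 and Mcm6 were 0.054 and 0.13 at 12 h, and the other 3 of Mcm7 lay from -0.068 to 0.10. The Mcm3 probe set used can bind other transcripts, and the other 4 probe sets lay from -0.17 to 0.29 at 12 h.

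Other probe sets did not show these rises at 12 h. The dimmer Mcm10 probe set (median signal 58.7) was 0.38, 0.10 and -0.11 at 3, 6 and 12 h, and with it in place of the brighter the adjusted p was 0.671, 0.901 and 0.883. The second Mcm2 probe set, at a median signal of 2012, was -0.48, -0.43 and -0.023 at 3, 6 and 12 h. Averaging the probe sets ended the Mcm2 call (adjusted p = 0.38) and the Mcm10 calls at 3, 6 and 12 h (adjusted p = 0.189, 0.192 and 0.0933). The Mcm2 call was also lost without 0 h array 2 (adjusted p = 0.0571), and the Mcm10 call at 3 h without 0 h array 1 (adjusted p = 0.12), 0 h array 2 (adjusted p = 0.168), 3 h array 1 (adjusted p = 0.0759) or 3 h array 2 (adjusted p = 0.194). Over all alternatives the adjusted p lay between 0.00223 and 0.38 for Mcm2 and between 4.55e-05 and 0.883 for Mcm10 at 12 h, and between 0.023 and 0.671 and between 0.0025 and 0.901 for Mcm10 at 3 and 6 h.

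All 3 licensing genes were called at 6 h, 2 higher and 1 lower, against 26.5% of all genes called. Cdc6 and Cdt1, which load the helicase, rose, and Gmnn, which restrains CDT1, fell. Cdc6 had signals of 681 and 666 at 0 h, 956 and 1075 at 3 h, 1245 and 982 at 6 h, and 748 and 939.9 at 12 h. It was called at 3 h (0.58 ± 0.15, adjusted p = 0.0217) and at 6 h (0.71 ± 0.15, adjusted p = 0.0036), and at 12 h the change was 0.31 ± 0.15 (adjusted p = 0.118). Cdt1 was 4796 and 6082 at 6 h against 3896 and 4286 at 0 h (0.40 ± 0.13, adjusted p = 0.0304), and 0.11 at 12 h, where the arrays overlapped those of 0 h. The second Cdt1 probe set (median signal 2889) was 0.62, 0.64 and 0.31 at 3, 6 and 12 h, and with it Cdt1 was called at 3, 6 and 12 h (adjusted p = 0.00234, 0.000823 and 0.0407). Gmnn had signals of 2561 and 2713 at 0 h, 2295 and 2218 at 3 h, 1839 and 2000.5 at 6 h, and 2148 and 1833 at 12 h. The fall of Gmnn was -0.46 ± 0.11 at 6 h (adjusted p = 0.0095) and -0.41 ± 0.11 at 12 h (adjusted p = 0.0119), with no overlap at any time.

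Cdc6 had 1 probe set, of a kind that can bind several transcripts, so the alternative without these could not be run for it. Its call at 6 h held under the 18 alternatives run (adjusted p between 0.002 and 0.0338). At 3 h it was lost without 0 h array 1 (adjusted p = 0.107), 0 h array 2 (adjusted p = 0.131), 3 h array 1 (adjusted p = 0.0598) or 3 h array 2 (adjusted p = 0.146). With every array scaled to the same median signal, Mcm10 and Cdc6 were not called at 3 h (adjusted p = 0.0957 and 0.0629), so that 0 S phase genes were higher and 3 lower, in place of 2 and 1. The Cdt1 call at 6 h was lost under the same scaling (adjusted p = 0.105), with probe sets averaged (adjusted p = 0.167) and without 0 h array 1 (adjusted p = 0.205), 0 h array 2 (adjusted p = 0.0742) or 6 h array 2 (adjusted p = 0.2). The Gmnn calls were lost at 6 h without 0 h array 2 (adjusted p = 0.0869) and at 12 h without 0 h array 2 (adjusted p = 0.0959) or 12 h array 2 (adjusted p = 0.115). Over the alternatives the adjusted p lay between 0.00584 and 0.146 for Cdc6 at 3 h, between 0.00234 and 0.333, between 0.000823 and 0.205 and between 0.0407 and 0.881 for Cdt1 at 3, 6 and 12 h, and between 0.003 and 0.0869 and between 0.00796 and 0.115 for Gmnn at 6 and 12 h.

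Of the sliding clamp and its 3 loader genes, Rfc4 alone was called against 0 h, 1 of 4 higher, against 20.9% of all genes. Pcna, the clamp, had the highest signal of its own on a 0 h array: 11778 and 11035 at 0 h, 10505 and 10065 at 3 h, 11008 and 9828 at 6 h, and 10648 and 9143 at 12 h. All later arrays were below both 0 h arrays, and the change at 12 h was -0.21 ± 0.11 (95% interval -0.45 to 0.038, adjusted p = 0.173). Rfc4, a subunit of the clamp loader, was 1757 and 1685 at 12 h against 1311 and 1265 at 0 h (0.42 ± 0.13, adjusted p = 0.0205). Its second probe set changed by 0.37. Rfc3 and Rfc5 were 0.19 ± 0.11 and 0.21 ± 0.11 at 12 h, not called, with both 12 h arrays above both 0 h arrays in each. The Rfc4 call was lost without 0 h array 1 (adjusted p = 0.0746), 0 h array 2 (adjusted p = 0.114), 12 h array 1 (adjusted p = 0.0951) or 12 h array 2 (adjusted p = 0.0544), and its adjusted p lay between 0.00543 and 0.114 over the alternatives.

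**Figure D3:**
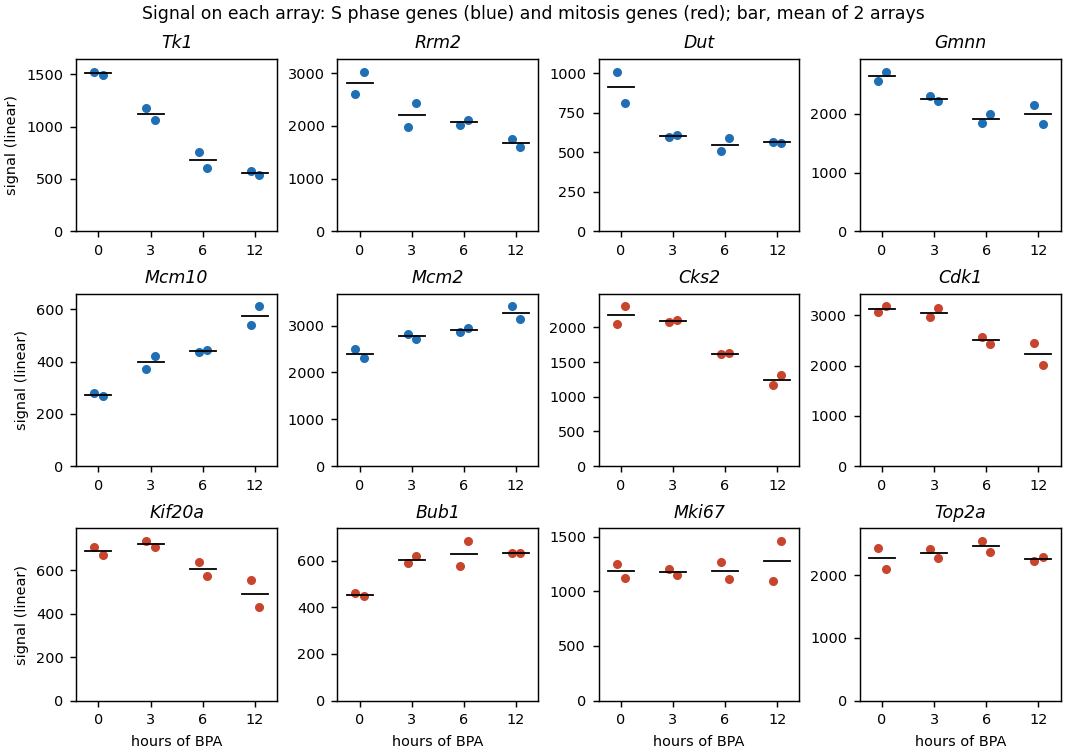
Deposited linear signal (vertical axis, from 0) of 12 members at 0, 3, 6 and 12 h of BPA, with a point for each array and a bar for the mean of 2 arrays. Tk1, Rrm2, Dut, Gmnn, Cks2, Cdk1 and Kif20a end below their 0 h points, Mcm10, Mcm2 and Bub1 above, and Top2a and Mki67 overlap them.

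Of the nucleotide enzymes 4 of 5 were called lower at 12 h, with a median of -0.68, against 17.5% of all genes lower. Tk1 encodes the cytosolic thymidine kinase of the salvage pathway, whose level normally peaks in S phase. Its signals were 1521 and 1490.2 at 0 h, 1181 and 1064 at 3 h, 753 and 605 at 6 h, and 573 and 542 at 12 h. Each later time lay below both 0 h arrays, with changes of -0.42 ± 0.13 (adjusted p = 0.0542), -1.15 ± 0.13 (adjusted p = 4e-05) and -1.42 ± 0.13 (adjusted p = 3.82e-06) at 3, 6 and 12 h. Rrm2, the small subunit of ribonucleotide reductase that is made in S phase, had signals of 2612 and 3027 at 0 h, 1986 and 2446 at 3 h, 2024 and 2120.1 at 6 h, and 1761 and 1604 at 12 h. The change was -0.44 ± 0.13 at 6 h (adjusted p = 0.0207) and -0.74 ± 0.13 at 12 h (adjusted p = 0.000486), and 2 other Rrm2 probe sets were -0.89 and -0.71 at 12 h.

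Rrm1, the large subunit of the same enzyme, had signals of 4979 and 4515 at 0 h, 4287 and 3925 at 3 h, 4122 and 3384 at 6 h, and 3884 and 2977 at 12 h. All later arrays were below both 0 h arrays, and the change was called at 12 h (-0.48 ± 0.14, adjusted p = 0.0154), with -0.47 on the second probe set. Dut, which breaks down dUTP and so keeps uracil out of DNA, had signals of 1008 and 813 at 0 h, 594 and 610.4 at 3 h, 506 and 587 at 6 h, and 568 and 559.9 at 12 h. It fell by 3 h (-0.58 ± 0.14, adjusted p = 0.0166) and was at a like level at 6 h (-0.72 ± 0.14, adjusted p = 0.00215) and 12 h (-0.68 ± 0.14, adjusted p = 0.00199). Tyms, thymidylate synthase of the de novo route, was the exception: it was dim, at 90.8 and 55.8 at 12 h against 63.1 and 56.3 at 0 h, and its interval of -0.56 to 1.03 allows neither direction to be given.

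At 3 h Tk1 was called without 6 h array 1 (adjusted p = 0.0259) or 6 h array 2 (adjusted p = 0.0252), the alternatives lying between 0.0179 and 0.271. The Tk1 calls at 6 and 12 h and the Rrm2 and Dut calls at 12 h held under every alternative tried, with adjusted p up to 0.0399. The Rrm2 call at 6 h was lost without 0 h array 2 (adjusted p = 0.193) or 6 h array 1 (adjusted p = 0.074), the Dut call at 3 h without 0 h array 1 (adjusted p = 0.194), 3 h array 1 (adjusted p = 0.0978) or 3 h array 2 (adjusted p = 0.0732), and the Rrm1 call at 12 h without 0 h array 1 (adjusted p = 0.12) or 12 h array 2 (adjusted p = 0.168). With probe sets that can bind several transcripts left out, Dut was read by a dim probe set and was -0.82 at 6 h (adjusted p = 0.34). Over the alternatives the adjusted p lay between 0.0019 and 0.193 for Rrm2 at 6 h, between 0.006 and 0.194 and between 0.000891 and 0.34 for Dut at 3 and 6 h, and between 0.00174 and 0.168 for Rrm1 at 12 h.

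Among the 4 genes of strand synthesis, Fen1 fell and the others were not called (1 of 4 at 12 h, against 17.5% of all genes called lower). Fen1 encodes the flap endonuclease that trims Okazaki fragments. Its signals were 1925 and 1899 at 0 h, 1285 and 1630.1 at 3 h, 1209 and 1013 at 6 h, and 1471 and 863 at 12 h. Every later array was below both 0 h arrays, although the 2 arrays at 12 h lay far apart, and the change was -0.78 ± 0.20 at 6 h (adjusted p = 0.0113) and -0.76 ± 0.20 at 12 h (adjusted p = 0.00901). The second Fen1 probe set changed by -0.86 at 12 h. Lig1, the ligase that seals the fragments, was 0.086 ± 0.11 (95% interval -0.15 to 0.32), and the primase and polymerase genes Prim1 and Pola1 were 0.085 ± 0.14 and 0.011 ± 0.14. The second Prim1 probe set was 0.47 at 12 h. The Fen1 call was lost at 6 h without 0 h array 1 (adjusted p = 0.0696), 0 h array 2 (adjusted p = 0.0633) or 6 h array 2 (adjusted p = 0.0641) and at 12 h without 0 h array 1 (adjusted p = 0.0538) or 12 h array 2 (adjusted p = 0.112). Its adjusted p lay between 0.000586 and 0.0745 and between 0.000361 and 0.112 at these times over the alternatives.

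Of the 2 genes that control S phase, Chek1 rose and E2f1 was not called, against 20.9% of all genes called higher at 12 h. Chek1, the kinase that slows replication when forks stall, had signals of 435 and 611 at 0 h, 365 and 608 at 3 h, 616 and 586 at 6 h, and 916 and 785 at 12 h. The 12 h arrays were above all others, and the change was 0.71 ± 0.22 (adjusted p = 0.0189), with 0.44 on its second probe set. E2f1, a factor that switches on S phase genes, had signals of 317 and 394 at 0 h, 351 and 326 at 3 h, 351 and 309 at 6 h, and 393 and 367 at 12 h. The times overlapped, and the change at 12 h was 0.10 ± 0.16 (95% interval -0.25 to 0.45). Its second probe set went the other way: with probe sets that can bind several transcripts left out, E2f1 was -0.61 at 12 h (adjusted p = 0.0239, the alternatives lying between 0.0239 and 0.884). The Chek1 call was lost with those probe sets left out (0.44, adjusted p = 0.311) and without 0 h array 1 (adjusted p = 0.197) or 12 h array 1 (adjusted p = 0.113). Its adjusted p lay between 0.00293 and 0.311.

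The 6 S phase genes with an E2F word before their start were Mcm5, Mcm6, Mcm7, Cdc6, Rfc3 and Pola1. At 12 h their changes lay from 0.011 to 0.31 and none was called, against 38.4% of all genes. Cdc6 was the member called at 3 and 6 h, against 12.1% and 26.5% of all genes. The S phase genes that fell most, Tk1, Fen1, Rrm2 and Dut, held no such word in this window. Only 6 of 23 S phase genes with a promoter held one, so its absence is common among them. Other spellings were not searched, and a link of the falls to E2F was not tested.

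All 6 genes of mitotic entry lay below 0 at 12 h, and Cks2 and Cdk1 of them were called lower (2 of 6, against 17.5% of all genes called lower). Of all 8675 genes 3955 lay below 0. Cks2 encodes a small protein that binds cyclin-dependent kinases. Its signals were 2049.8 and 2301 at 0 h, 2072 and 2111 at 3 h, 1622 and 1624 at 6 h, and 1172 and 1309 at 12 h. The 3 h arrays overlapped those of 0 h, and the change was -0.054 ± 0.11 at 3 h, -0.42 ± 0.11 at 6 h (adjusted p = 0.014) and -0.81 ± 0.11 at 12 h (adjusted p = 9.82e-05). The second Cks2 probe set changed by -1.25 at 12 h. Cdk1, the kinase that starts mitosis and whose upstream run holds both E2F and cell cycle homology words, had signals of 3071 and 3174 at 0 h, 2962 and 3146 at 3 h, 2572 and 2426 at 6 h, and 2445 and 2000.4 at 12 h. It overlapped 0 h at 3 h, lay below it from 6 h, and was called at 12 h (-0.50 ± 0.12, adjusted p = 0.0043).

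Plk1, a kinase of centrosome and spindle assembly, had signals of 409 and 479.9 at 0 h, 519 and 596 at 3 h, 408 and 353 at 6 h, and 342 and 342 at 12 h. It stood above 0 h at 3 h (0.32 ± 0.15, adjusted p = 0.202) and below it at 12 h (-0.37 ± 0.15, adjusted p = 0.0761), neither called. Aurka, the centrosome kinase Aurora A, and Cdca3, a factor needed for mitotic entry, were -0.29 ± 0.14 and -0.30 ± 0.14 at 12 h, with adjusted p of 0.114 and 0.102. Nek2, a kinase that separates centrosomes, was -0.27 ± 0.26 with arrays that overlapped. The Cks2 call at 12 h held under every alternative tried (adjusted p between 1.84e-06 and 0.00347), and that at 6 h was lost without 0 h array 2 (adjusted p = 0.145). The Cdk1 call was lost without 12 h array 2 (adjusted p = 0.0566). At 6 h Cdk1 was called without 12 h array 1 (adjusted p = 0.041) or 12 h array 2 (adjusted p = 0.0409). Over the alternatives the adjusted p lay between 0.00127 and 0.145 for Cks2 at 6 h, and between 0.0173 and 0.236 and between 0.00229 and 0.0566 for Cdk1 at 6 and 12 h.

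The 5 genes of the spindle checkpoint did not move as a group. Bub1, the kinase that gathers the checkpoint at kinetochores, had signals of 460.4 and 448 at 0 h, 588 and 620.0 at 3 h, 575 and 683 at 6 h, and 630.1 and 631 at 12 h. All later arrays were above both 0 h arrays, and the change was 0.46 ± 0.13 at 6 h (adjusted p = 0.0217) and 0.47 ± 0.13 at 12 h (adjusted p = 0.0137). Its dimmer second probe set (median signal 101.8) changed by -0.054. Mad2l1, the checkpoint protein MAD2 that holds back CDC20, had signals of 1991 and 1859.9 at 0 h, 1884 and 1573 at 3 h, 1456 and 1679.5 at 6 h, and 1534 and 1381 at 12 h. It lay below 0 h at 6 and 12 h and fell at 12 h (-0.40 ± 0.13, adjusted p = 0.0227). Cdc20, the activator that checkpoint proteins restrain, was -0.17 ± 0.14, Bub1b -0.33 ± 0.15 and Ttk, the kinase MPS1, 0.16 ± 0.18 at 12 h, none called.

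The Bub1 call was lost when its probe sets were averaged (adjusted p = 0.576 at 6 h and 0.438 at 12 h). At 3 h Bub1 was called without 6 h array 1 (adjusted p = 0.0452) or 6 h array 2 (adjusted p = 0.0468). The call was lost at 6 h without 0 h array 1 (adjusted p = 0.0891), 0 h array 2 (adjusted p = 0.116) or 6 h array 2 (adjusted p = 0.133), and at 12 h without 0 h array 1 (adjusted p = 0.0571), 0 h array 2 (adjusted p = 0.0799), 12 h array 1 (adjusted p = 0.0555) or 12 h array 2 (adjusted p = 0.054). Scaling to the same median signal also ended the Bub1 call at 6 h (adjusted p = 0.0768), and with it 0 mitosis genes were higher and 5 lower at 6 h, in place of 1 and 2, and under quantile normalization 0 and 2. The Mad2l1 call was lost without 0 h array 1 (adjusted p = 0.142), 0 h array 2 (adjusted p = 0.0665) or 12 h array 2 (adjusted p = 0.135). With probe sets averaged Cdc20 was -0.41 at 12 h and called (adjusted p = 0.0381, the alternatives lying between 0.0381 and 0.839). The adjusted p lay between 0.0452 and 0.672, between 0.0148 and 0.576 and between 0.0087 and 0.438 for Bub1 at 3, 6 and 12 h, and between 0.0104 and 0.142 for Mad2l1.

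None of the 6 genes of chromosome structure and attachment was called at any time, against 12.1%, 26.5% and 38.4% of all genes at 3, 6 and 12 h. Among the 6 are Mki67 and Top2a, which are used as markers of proliferation. Mki67, the source of the Ki-67 antigen, had signals of 1247 and 1122 at 0 h, 1204 and 1147 at 3 h, 1263 and 1109 at 6 h, and 1093 and 1458 at 12 h. Top2a, topoisomerase II alpha, which untangles sister chromatids, had signals of 2429 and 2105 at 0 h, 2419 and 2277 at 3 h, 2543 and 2373 at 6 h, and 2232 and 2288 at 12 h. In both, the groups overlapped at every time. The change at 12 h was 0.093 ± 0.14 for Mki67 (95% interval -0.22 to 0.40) and within -0.24 to 0.24 for Top2a, so a change of 2-fold lay outside both intervals. Birc5, the survivin of the chromosomal passenger complex, was -0.20 ± 0.11. Aurkb, the kinase of that complex, was -0.25 ± 0.15, with -0.82 on its second probe set and -0.53 with both averaged, which was called (adjusted p = 0.0178, the alternatives lying between 0.0178 and 0.768). The centromere histone gene Cenpa was -0.26 ± 0.12, and the kinetochore kinesin gene Cenpe, at signals near 100, 0.14 ± 0.34. At an unadjusted p under 0.05, 0 of the 6 passed at 12 h, against 4034 of all 8675 genes.

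Of the 7 spindle and cytokinesis genes, Kif20a alone was called at 12 h (1 of 7 lower, against 17.5% of all genes). Kif20a, a kinesin of the central spindle and cytokinesis, had signals of 707 and 670.5 at 0 h, 735 and 709 at 3 h, 638 and 574 at 6 h, and 554 and 429.8 at 12 h. It was above 0 h at 3 h, below from 6 h, and fell at 12 h (-0.49 ± 0.14, adjusted p = 0.0165). Kif2c had signals of 554 and 638 at 0 h, 460.5 and 594 at 3 h, 340.3 and 465 at 6 h, and 414 and 457 at 12 h. It was called at 6 h (-0.57 ± 0.18, adjusted p = 0.0301) and was -0.45 ± 0.18 at 12 h (adjusted p = 0.0646), where all arrays were still below 0 h. Prc1 had signals of 885 and 1045 at 0 h, 1214 and 978 at 3 h, 1276 and 1044 at 6 h, and 1176 and 1266 at 12 h, with 0.34 ± 0.15 at 12 h (adjusted p = 0.0825). Both 12 h arrays of Prc1 were above both 0 h arrays, the opposite of Kif20a and Kif2c. The remaining changes at 12 h were -0.015 (Kif11, the motor that separates spindle poles), -0.28 (Kif23, of the central spindle), 0.21 (Tpx2, the activator of Aurora A) and -0.20 (Nusap1, a microtubule binder). The second Tpx2 probe set (median signal 134.05) was -0.48, -0.83 and -0.15 at 3, 6 and 12 h. A dim second Kif23 probe set (69.5) was -1.14 at 12 h. Other Kif11 and Nusap1 probe sets above the filter were also below 0 at 12 h. The Kif20a call was lost without 0 h array 1 (adjusted p = 0.0999), 0 h array 2 (adjusted p = 0.06) or 12 h array 2 (adjusted p = 0.162), and the Kif2c call without 0 h array 1 (adjusted p = 0.0684), 0 h array 2 (adjusted p = 0.199) or 6 h array 1 (adjusted p = 0.226). The Kif2c probe set used can bind several transcripts, and its 3 other probe sets were -0.023, -0.19 and 0.50 at 6 h and -0.30, -0.37 and -0.068 at 12 h. Without such probe sets Kif2c was -0.023 at 6 h (adjusted p = 0.934), and with all averaged -0.071 (adjusted p = 0.77). At 12 h Kif2c was called without 6 h array 1 (adjusted p = 0.0353) or 6 h array 2 (adjusted p = 0.0368). Over the alternatives the adjusted p lay between 0.00689 and 0.162 for Kif20a, and between 0.00587 and 0.934 and between 0.0173 and 0.303 for Kif2c at 6 and 12 h.

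By letters in the promoter, 8 mitosis genes held a cell cycle homology word: Cdk1, Cdc20, Bub1b, Kif11, Kif2c, Top2a, Prc1 and Mki67. Their changes at 12 h lay from -0.50 to 0.34 with a median of -0.091. Of the 8, 1 was called, Cdk1, which was lower, against 17.5% of all genes lower and 20.9% higher. The 17 measured mitosis genes with CCAAT had a median of -0.26, near the -0.25 of all 24 mitosis genes, with 2 called lower and 1 higher. The 12 S phase genes with CCAAT had a median of 0.10, near the 0.11 of all 25 S phase genes, with 2 called in each direction.

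**Figure D4:**
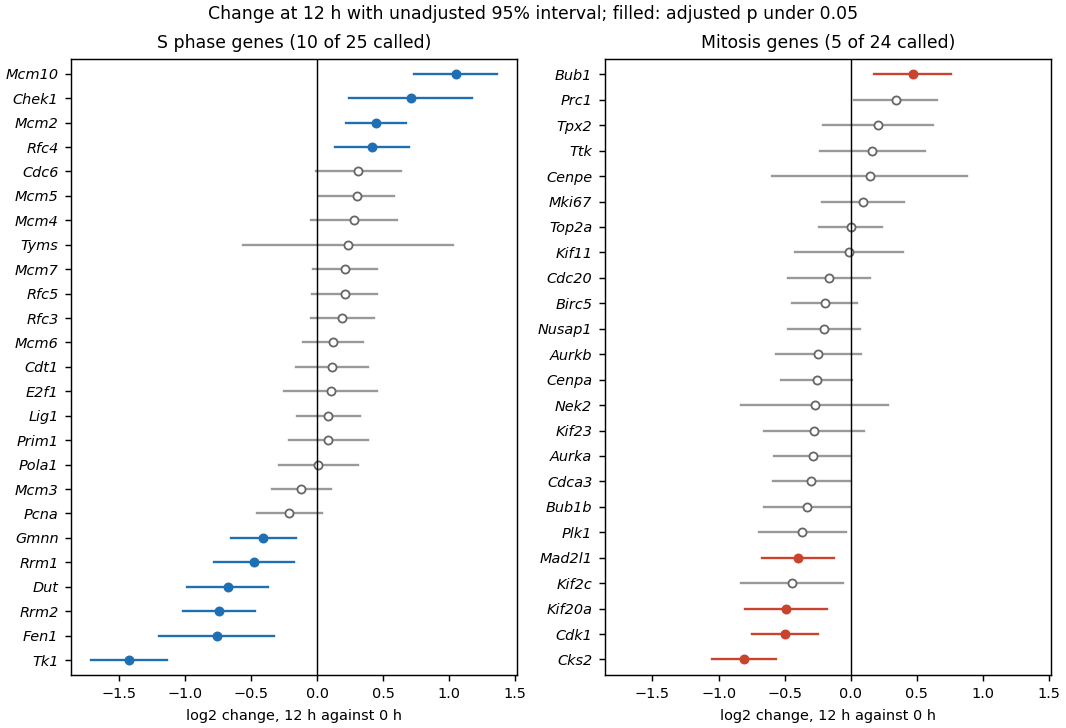
Log2 change at 12 h against 0 h (horizontal axis) of each S phase gene (left) and mitosis gene (right), with the unadjusted 95% interval as a bar, and filled points for adjusted p under 0.05. The S phase genes run from -1.42 (Tk1) to 1.05 (Mcm10), and the mitosis genes from -0.81 (Cks2) to 0.47 (Bub1).

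Set against each other, the later times differed in few members, except 12 h against 3 h. Between 3 and 6 h, 1 S phase gene was called, Tk1 (-0.72 ± 0.13, adjusted p = 0.018), and 0 mitosis genes, against 1.12% of all genes. There 2 of 25 S phase genes and 5 of 24 mitosis genes passed at an unadjusted p under 0.05, against 1244 of all 8675. That Tk1 call was lost without 3 h array 1, 3 h array 2 or 6 h array 2. Between 6 and 12 h none of the 49 members was called by limma, against 4.77% of all genes. In this step 7 of 25 S phase genes and 3 of 24 mitosis genes passed at an unadjusted p under 0.05, against 1740 of all 8675. Without 6 h array 2 some S phase genes were called higher there, while the count over all genes also varied between the alternatives. From 3 to 12 h, 6 S phase genes and 6 mitosis genes were called, against 21.9% of all, 9.52% higher and 12.4% lower. The S phase genes went both ways: Chek1 (0.84 ± 0.22, adjusted p = 0.0145), Mcm10 (0.53 ± 0.15, adjusted p = 0.0206), Rfc4 (0.48 ± 0.13, adjusted p = 0.0173) and Rfc3 (0.40 ± 0.11, adjusted p = 0.0215) were higher at 12 h, and Tk1 (-0.998 ± 0.13, adjusted p = 0.000213) and Rrm2 (-0.39 ± 0.13, adjusted p = 0.0428) lower.

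All 6 called mitosis genes were lower at 12 h than at 3 h, against 12.4% of all genes lower. They were Cks2 (-0.75 ± 0.11, adjusted p = 0.000479), Plk1 (-0.69 ± 0.15, adjusted p = 0.00649), Bub1b (-0.65 ± 0.15, adjusted p = 0.00872), Kif20a (-0.56 ± 0.14, adjusted p = 0.0153), Cdk1 (-0.46 ± 0.12, adjusted p = 0.0128) and Aurka (-0.45 ± 0.14, adjusted p = 0.0318). In Plk1, Bub1b, Aurka and Kif20a the 3 h arrays were above both 0 h arrays and the 12 h arrays below them. None of these genes was called at 3 h against 0 h. Over the alternatives the 3 h change of Kif20a lay between -0.064 and 0.11, while that of Plk1, Bub1b and Aurka stayed above 0. Both 3 h arrays were above both 0 h arrays in 6 of 24 mitosis genes, against 34.7% of all genes, so this rise is not particular to the mitosis genes. The count of lower mitosis genes was 2 to 7 with an array left out in turn, 2 without 3 h array 2 or 12 h array 2 and 3 without 3 h array 1, and that of S phase genes called in either direction 2 to 6, 2 without 3 h array 1 or 12 h array 2 and 3 without 3 h array 2 or 12 h array 1. With arrays set to the same median signal the counts of 12 h against 3 h were 6 higher and 1 lower for S phase genes and 0 higher and 3 lower for mitosis genes, beside 1414 higher and 770 lower over all genes, in place of 826 and 1075. The comparisons with 3 h and with 0 h share arrays.

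Other genes of the 2 pathways were examined too, listed from knowledge of their function and with earlier results of these data known. Of 64 other S phase genes 51 were tested, and 15 (29.4%) were higher and 10 (19.6%) lower at 12 h (49.0% called, against 38.4% of all genes, median 0.039). The origin recognition subunits Orc4 (1.48 ± 0.11, adjusted p = 7.15e-07), Orc5 (1.09 ± 0.13, adjusted p = 2.44e-05) and Orc3 (1419.5 and 1039 at 12 h against 602 and 605 at 0 h, adjusted p = 0.000286), on which the helicase is loaded, rose most, with Pold2, a subunit of DNA polymerase delta (0.92 ± 0.14, adjusted p = 0.000231). Those that fell most were Nasp, a histone chaperone (-0.97 ± 0.12, adjusted p = 4.56e-05), Rpa3, a subunit of the single-strand binding protein (-0.87 ± 0.13, adjusted p = 0.000151), Dnmt1, which copies methylation onto new strands (-0.70 ± 0.12, adjusted p = 0.000355), and Dck, a salvage kinase for nucleosides (-0.69 ± 0.17, adjusted p = 0.00518). Orc4 and Nasp were read by probe sets that can bind several transcripts, and without these Orc4 was 0.21 (adjusted p = 0.306) and Nasp -0.065 (adjusted p = 0.916) at 12 h. The Orc3 call was lost with its 3 probe sets averaged (0.18, adjusted p = 0.531), and that of Dck without 0 h array 2 (adjusted p = 0.0545). Over the alternatives the adjusted p lay between 1.52e-07 and 0.306 for Orc4, between 1.74e-05 and 0.916 for Nasp, between 2.59e-05 and 0.531 for Orc3 and between 0.000238 and 0.0545 for Dck.

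Of 79 other mitosis genes 61 were tested, and 13 were higher and 8 lower at 12 h (34.4% called, against 38.4% of all genes, median 0.0045), beside -0.25 for the 24 members and 0.058 for all genes. Cdc27, a subunit of the anaphase-promoting complex (1.53 ± 0.27, adjusted p = 0.000592), Smc4 of condensin (0.92 ± 0.11, adjusted p = 3.68e-05), and Zwilch (0.89 ± 0.18, adjusted p = 0.00148) and Ndc80 (0.86 ± 0.16, adjusted p = 0.00105) of the kinetochore rose most. The largest falls were in Cenpc1, of the inner kinetochore (-1.12 ± 0.22, adjusted p = 0.00128), Zwint, a kinetochore protein (-0.78 ± 0.11, adjusted p = 0.00014), Ube2c, the ubiquitin-conjugating enzyme of the anaphase-promoting complex (-0.77 ± 0.13, adjusted p = 0.000342), and Wee1, the kinase that holds CDK1 inactive (-0.68 ± 0.22, adjusted p = 0.0295). Zwint had 6 probe sets, and with their mean the change was -0.46 (adjusted p = 0.0781). The Wee1 call was lost without 0 h array 1 (adjusted p = 0.0813), 0 h array 2 (adjusted p = 0.149) or 12 h array 1 (adjusted p = 0.172), its adjusted p lying between 0.0038 and 0.172.

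Of 34 regulators of these genes 28 were tested, and 3 were higher and 8 lower at 12 h (39.3% called, against 38.4% of all genes, median -0.12). Myc, a factor that promotes growth and S phase entry, had signals of 928 and 977 at 0 h, 3743 and 3445 at 3 h, 2949.8 and 3069 at 6 h, and 2204 and 2262 at 12 h. It was highest at 3 h (1.91 ± 0.10, adjusted p = 6.54e-08) and still above 0 h at 12 h (1.22 ± 0.10, adjusted p = 1.91e-06). Of the 8 that fell, the 4 with the largest falls were Skp2, which marks the inhibitor p27 for destruction (-1.61 ± 0.16, adjusted p = 5.76e-06), E2f6 (-1.56 ± 0.30, adjusted p = 0.00114) and E2f8 (-1.48 ± 0.21, adjusted p = 0.000145), both repressors of the E2F family, and Cdk2, the S phase kinase (-1.43 ± 0.17, adjusted p = 2.42e-05). Skp2 was 269.5 and 225 at 12 h against 819 and 726 at 0 h, and Cdk2 321 and 436 at 12 h against 1006 and 1038 at 0 h. Lin37, of the MuvB complex (0.72 ± 0.21, adjusted p = 0.0142), and Nfyc, a subunit of NF-Y (0.38 ± 0.14, adjusted p = 0.0418), rose.

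Cdkn1a, the kinase inhibitor p21 that p53 induces, was 6223 and 5213 at 6 h against 3615 and 4203 at 0 h, called at 3 h (0.48 ± 0.12, adjusted p = 0.022) and 6 h (0.55 ± 0.12, adjusted p = 0.00517) and 0.26 ± 0.12 at 12 h (adjusted p = 0.11). With its probe sets averaged Cdkn1a was 0.87 at 12 h and called (adjusted p = 0.000141, the alternatives lying between 0.000141 and 0.512). Rb1 (-0.041 ± 0.19), Foxm1 (0.12 ± 0.21) and Mybl2, the gene of B-MYB (-0.18 ± 0.24), were not called at any time, and Trp53 was not analysed here. The Lin37 call was lost without 0 h array 1 (adjusted p = 0.0566), 0 h array 2 (adjusted p = 0.0791) or 12 h array 1 (adjusted p = 0.171), and the Nfyc call without 0 h array 2 (adjusted p = 0.344), 3 h array 1 (adjusted p = 0.0527), 3 h array 2 (adjusted p = 0.053), 12 h array 1 (adjusted p = 0.177) or 12 h array 2 (adjusted p = 0.0735). The Cdkn1a call was lost at 3 h without 0 h array 1 (adjusted p = 0.217), 3 h array 1 (adjusted p = 0.0745) or 3 h array 2 (adjusted p = 0.151) and at 6 h without 0 h array 1 (adjusted p = 0.0781). Over the alternatives the adjusted p lay between 0.00176 and 0.171 for Lin37, between 0.023 and 0.344 for Nfyc, and between 0.00352 and 0.217 and between 0.000718 and 0.0781 for Cdkn1a at 3 and 6 h.

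**Figure D5:**
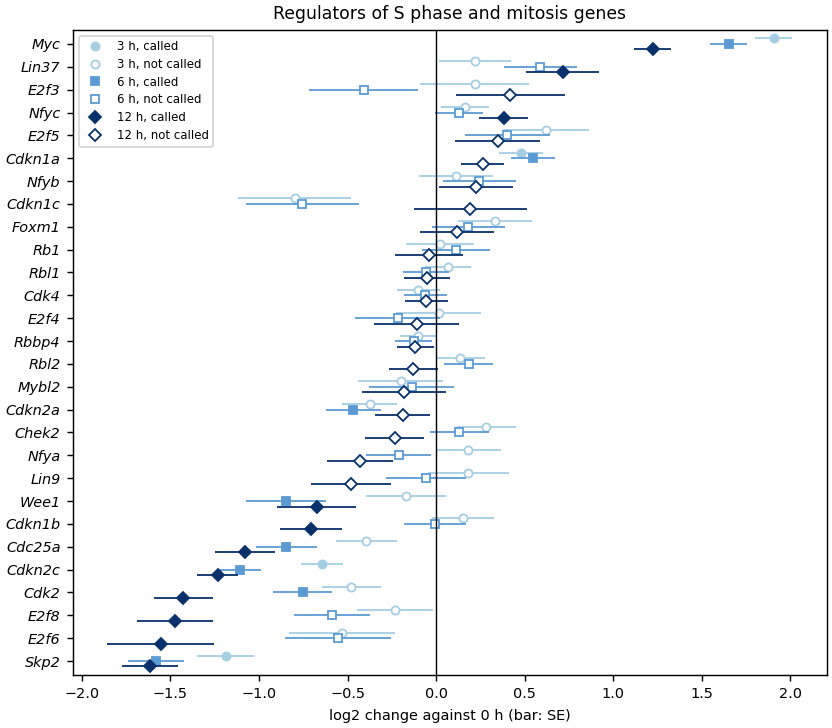
Log2 change against 0 h (horizontal axis) of 28 regulators at 3, 6 and 12 h, with the standard error as a bar and filled symbols for adjusted p under 0.05. Myc stands far right at every time, and Skp2, E2f6, E2f8 and Cdk2 reach -1.4 or below by 12 h.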

How the data were processed

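The authors deposited linear signal intensity values, 1 for each of 22690 probe sets on 8 Affymetrix arrays. The values were already scaled, since the mean without the top and bottom 2% was 500.16 to 500.18 on every array. The summary algorithm is not given in the sources used here. Probe sets were named from the platform annotation, with symbols updated through Entrez identifiers to RefSeq for 20351 and kept for 29. The 64 controls, 691 probe sets with several genes and 1555 with none were left out, giving 12393 genes. The members and all gene lists were chosen with earlier results of these data known.

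Values were taken as log2(signal + 7.9). The 3718 genes below the 30th percentile of mean log2 signal were removed, leaving 8675. They were fitted with limma 3.58.1 in R 4.3.3, with a mean for each time over all 8 arrays and empirical Bayes variances with an intensity trend (4 residual and 9.00 prior degrees of freedom). P-values were adjusted by Benjamini-Hochberg over all genes tested, and 95% intervals are unadjusted. Values on every array are given for the 8 S phase and 8 mitosis members with the largest change at 12 h and for Mcm2, Pcna, E2f1, Cdk1, Mki67 and Top2a. Values of all arrays are also given for Cdc6, Gmnn and Myc, a choice made after they were seen. The other lists are each represented by their 4 largest rises and 4 largest falls among calls at 12 h, with Cdkn1a, Trp53, Rb1, Foxm1, Mybl2 and Myc whatever their result. On simulated data with 8675 genes for 12 h against 0 h, the test recovered 70.4% of genes changed 2-fold and 100% of those changed 4-fold, with 3.84% false calls. The simulation gave every gene the same spread and changed 200 genes. In the data 38.4% of genes were called at 12 h, so these shares need not hold for the calls reported here. The arrays' number, 2 for each time, limits the precision. Alternatives were other offsets, filters, scalings, variance models, probe set choices and fits with an array left out.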

Additional observations from a re-analysis of the deposited data

How the results depend on the processing

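Of 29 calls of a member at a time against 0 h, 6 held under every alternative run, 19 for most genes and 18 for Cdc6, which has no probe set left without those able to bind several transcripts: Cdc6 at 6 h, Tk1 at 6 and 12 h, and Rrm2, Dut and Cks2 at 12 h. Of 118 member and time pairs not called, 18 were called under some alternative. Without probe sets marked as able to bind several transcripts, Mcm10 was -0.11 at 12 h (adjusted p = 0.883), E2f1 -0.61 at 12 h (adjusted p = 0.0239) and Nasp 0.15 at 6 h (adjusted p = 0.813), each opposite in sign to the reported value, since another probe set was read. The S phase count at 6 h was then 4 of 22. With no intensity trend in the variance, the S phase counts were 0, 5 and 6 at 3, 6 and 12 h and the mitosis count was 1 at 6 h, and 611 genes in all were called at 3 h. Fitting only the times compared gave 6 S phase genes and 1 mitosis gene at 3 h. The count over all genes for that fit is not given here, so these counts cannot be read as particular to the members. Scaling to the same median gave 5 mitosis genes at 6 h, and averaging all probe sets of a gene gave 1. With an array left out in turn, S phase counts were 0 to 5 at 3 h, 4 to 8 at 6 h and 6 to 10 at 12 h, and mitosis counts 0 to 1, 0 to 4 and 1 to 6. Over all genes, 454 to 546 were called at 3 h without a 0 h or 3 h array, and 1378 to 1382 at 6 h without a 0 h array. Between 3 and 6 h 97 genes were called in all, and 6 to 226 under the alternatives. Between 6 and 12 h 414 were called, and 114 to 703. From 3 to 12 h 1901 were called, and 1012 to 1110 without 3 h array 1, 3 h array 2 or 12 h array 1. Except for the effect of the probe set read, the cause was not tested. Arrays with the same replicate number had correlations of their deviations from the group mean of -0.011 to 0.12. With 2 arrays for each time, these low values cannot tell whether same-numbered arrays share a culture or batch. With a replicate block, 5 S phase genes and 1 mitosis gene were called at 3 h, and here too no count over all genes is given to set beside them. The same alternatives for named genes of the other lists were added after seeing the data. Signals near the filter limit what can be said of Tyms.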
